A study of Mus musculus with 17 samples.

Results

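The 41 genes described here are interferon-stimulated genes, which cells transcribe when interferon reaches them. They were chosen by name, with MHC class I and immunoproteasome genes kept apart, and earlier results of these data were known when they were chosen. Each symbol matched 1 of the 36172 rows of the count table, and all 41 had a summed count of 17 or more over the 17 libraries. All 41 also passed the low-count filter and were among the 13965 genes tested. By role they were 19 antiviral effectors, 4 genes of the ISG15 system, 3 transcription factors, 4 nucleic acid sensors, 3 genes of the PARP and DTX3L group, and 8 GTPases and chemokines that respond strongly to interferon gamma.

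RNA was sequenced from the extensor digitorum longus (EDL), a fast muscle of the lower leg, of 17 aged mice. The empty-vector group held 5 females and 5 males, 3 of them 22 months and 7 of them 23 months old, and the Hand2-vector group held 4 females and 3 males, 4 of them 22 months and 3 of them 23 months old. Sympathetic neurons depend on the transcription factor Hand2, and the series is about keeping those neurons, and with them muscle mass, in old age. Every animal carried a vector, and no muscle without one was analysed here. The labels give no strain, promoter, dose, route or time of the vectors. The 4 Hand2 animals of 22 months also carry sample titles of another form than the rest, so their age and what that form may stand for cannot be told apart.

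Interferons are secreted proteins that warn neighbouring cells of viral or misplaced nucleic acid. Type I interferons (alpha and beta) signal through the kinases JAK1 and TYK2 to a complex that holds STAT2 and IRF9 and binds the interferon-stimulated response element (ISRE). Interferon gamma, made mainly by T cells and NK cells, acts through the gamma-activated sequence (GAS). The target genes block virus entry, translation and replication, mark proteins with ISG15, and draw in lymphocytes. In muscle these genes are best known from inflammatory muscle disease, where fibres themselves express them.

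Total estimated counts per library lay between 19181208 and 30942818. Levels are CPM, the counts of a gene relative to a fixed total of counts, after TMM scaling of the libraries, and 3 counts corresponded to between 0.097 and 0.157 CPM. Hand2 itself lay between 0.071 and 0.94 CPM in the empty-vector libraries and between 1.02 and 26.3 CPM in the Hand2 libraries, without overlap (exact two-sided permutation test on log2(CPM + 0.1), p = 5.14e-05, n = 10 and 7, the smallest value this design can give). Its edgeR adjusted p was 0.124. Fast-muscle markers (8 of 8 measured) summed to between 73600 and 91592 CPM in all libraries. In whole muscle, fewer cells of a type and less RNA per cell cannot be told apart.

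1 animal stood apart from all others. In empty-vector replicate 5, a female of 23 months, 40 of the 41 genes had their highest level of the 17 libraries, a share of 97.6%, where the same library held the highest value for 7.83% of all genes tested. The ratio of its level to the median of the other 16 libraries ran from 1.45 for Trim25 to 28.9 for Irgm2, with a median of 5.56. This ratio was above 2 for 40 of the 41 genes (3.75% of all genes), above 4 for 27 (0.945% of all genes) and above 10 for 7 (0.222% of all genes). The exception to the ranking was Cxcl10, which was highest in empty-vector replicate 4. The library's total count was within the range of the others, and the comparisons that follow were run with and without it. Replicate 5 was singled out by the values of these same genes. For a gene highest in it, leaving it out lowers the empty-vector and female levels by construction and tends to narrow the SE. Changes of sign and unadjusted p-values without it are therefore descriptions that depend on this choice.

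**Figure D1:**
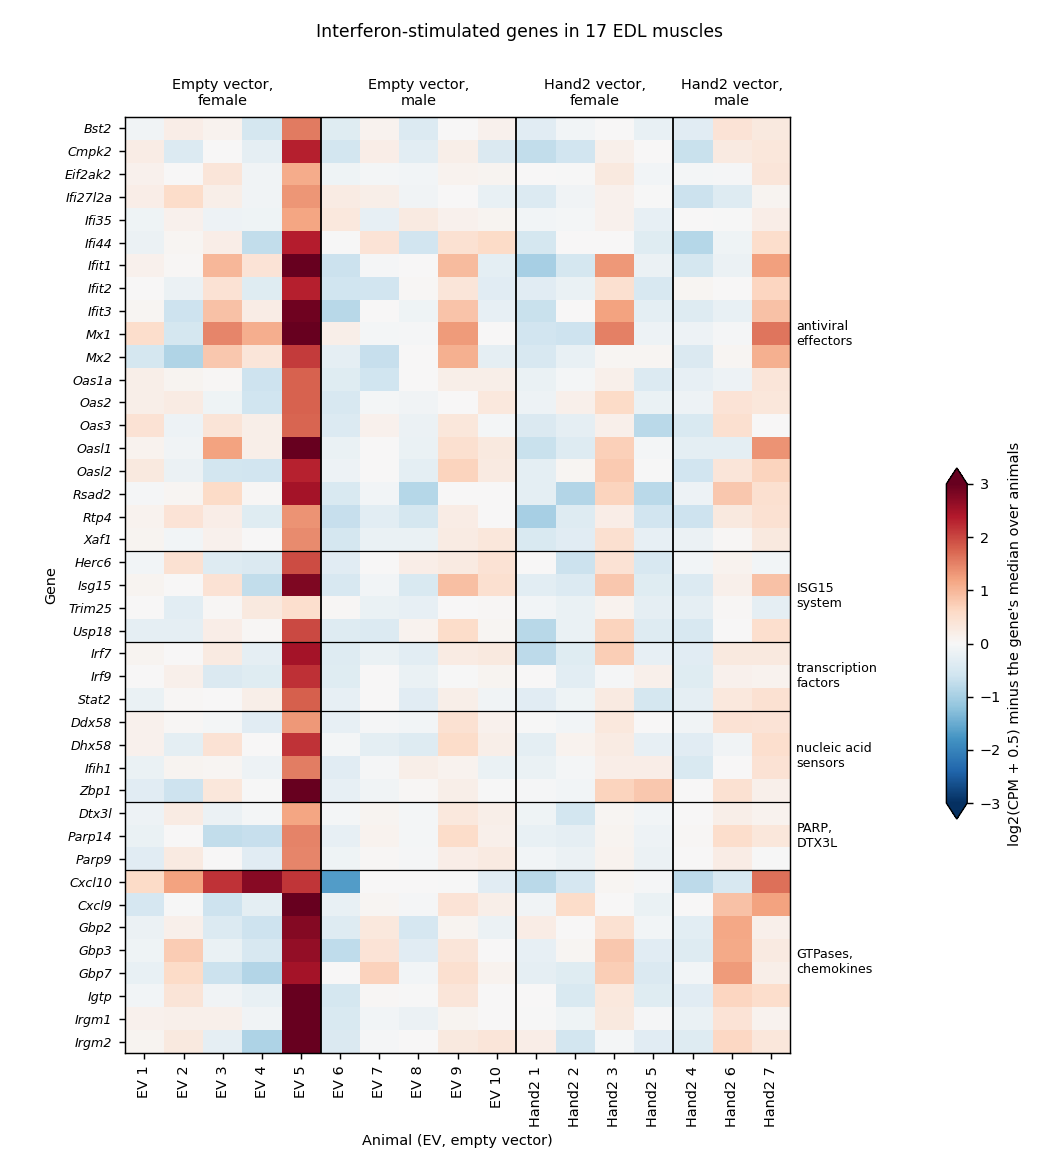
Heat map of the 41 interferon-stimulated genes (rows, grouped by role) in the 17 muscles (columns, grouped by vector and sex), where colour is log2(CPM + 0.5) minus the gene's median over the 17 animals. The column of empty-vector replicate 5 is red for every gene, with a median of 2.17, while the medians of the other 16 columns lie between -0.352 and 0.362.

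Promoters are shown for the genes that carry this pattern: 5 genes with a large excess in replicate 5, and Trim25, which had the smallest. RefSeq promoters (GRCm38.p6, the 250 bases before to the 50 bases after a transcription start) were at hand for 31 of the 41 genes and were searched on both strands. An ISRE core, spelled as GAAA, any pair of bases and GAAA again, was found in 18 of the 31 (58.1%), where 3.99% of 27025 genes with a RefSeq promoter held one. A GAS, spelled TTCNNNGAA, was found in 8 of the 31 (25.8%), where 9.55% of those genes held one. The 2 motifs may overlap in the search but did not do so in the sequences printed here. Below are the 150 bases before the start, 5′ to 3′ on the gene's strand, with ISRE and GAS letters in capitals.
Isg15: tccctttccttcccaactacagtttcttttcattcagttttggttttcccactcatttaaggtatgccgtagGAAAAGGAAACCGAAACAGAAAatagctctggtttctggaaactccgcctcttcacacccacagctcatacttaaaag
Ifit1: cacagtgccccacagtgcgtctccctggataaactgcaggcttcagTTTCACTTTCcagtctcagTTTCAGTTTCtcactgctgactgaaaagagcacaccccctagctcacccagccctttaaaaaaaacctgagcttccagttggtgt
Irgm1: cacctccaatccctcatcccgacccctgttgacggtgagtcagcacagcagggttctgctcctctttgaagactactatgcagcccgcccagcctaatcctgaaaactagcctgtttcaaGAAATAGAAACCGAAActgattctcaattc
Igtp: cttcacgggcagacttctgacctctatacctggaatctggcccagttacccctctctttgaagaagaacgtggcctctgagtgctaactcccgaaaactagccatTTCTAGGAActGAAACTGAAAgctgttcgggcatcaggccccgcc
Irgm2: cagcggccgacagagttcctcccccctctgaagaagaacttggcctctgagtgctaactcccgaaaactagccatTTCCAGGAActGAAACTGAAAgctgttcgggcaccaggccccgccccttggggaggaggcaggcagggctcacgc
Trim25: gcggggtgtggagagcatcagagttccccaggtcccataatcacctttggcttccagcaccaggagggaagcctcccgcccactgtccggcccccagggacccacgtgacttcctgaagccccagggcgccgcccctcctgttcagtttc

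These stretches lie at chr4:156200819-156200968 (minus strand), chr19:34640739-34640888 (plus), chr11:48871421-48871570 (minus), chr11:58199406-58199555 (plus), chr11:58214827-58214976 (plus) and chr11:88999253-88999402 (plus). Isg15 holds 3 overlapping ISRE cores, whose outer bases are 78 and 57 bases before the start, and Irgm1 holds 2 that overlap. Ifit1 holds 2 on the opposite strand. Igtp and Irgm2, neighbours on chromosome 11, both hold a GAS followed by an ISRE core, at 45 to 37 and 34 to 25 bases before the start in Igtp and at 75 to 67 and 64 to 55 bases in Irgm2. The RefSeq start of Irgm1 lies upstream of the gene bounds given for it here. Trim25, which had the smallest excess, holds neither in this window. Oasl1, with a ratio of 15.97, and Cxcl9 also hold neither. Among the 31 genes the ratio of replicate 5 to the other animals had a median of 6.01 (2.24 to 28.9) in the 18 with an ISRE core. It was 5.34 (1.45 to 15.97) in the 13 without. For a GAS the order was the other way, with a median of 5.22 (2.24 to 28.9) in the 8 with one. It was 5.92 (1.45 to 15.97) in the 23 without, so the ranges overlapped widely for both motifs. A match of letters is a description and does not show that a factor binds there.

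By role, the GTPases and chemokines that interferon gamma induces had the highest median ratio in that animal, 8.86. Irgm2, an immunity-related GTPase of intracellular membranes (chromosome 11, 58214977 to 58222783), was at 853 CPM in empty-vector replicate 5. In the other 9 empty-vector muscles it lay at 15.7 to 38.6 CPM (median 29.96) and in the 7 Hand2 muscles at 20.2 to 46.7 CPM (median 28.9). No other animal came near this level, and the 2 vector groups overlapped throughout the rest. Igtp (chromosome 11, 58199556 to 58207592), also called Irgm3, which guards lipid droplets and vacuoles, was at 479 CPM there, against 14.6 to 27.9 CPM (median 20.9) and 15.3 to 33.5 CPM (median 21.5). Irgm1 (chromosome 11, 48865249 to 48871346), which controls the other GTPases of its family, was at 279 CPM, against 19.1 to 29.9 CPM (median 26.7) and 23.2 to 35.7 CPM (median 26.4). Among the other 16 animals Irgm1 varied 1.86-fold, Igtp 2.30-fold and Irgm2 2.98-fold from lowest to highest. Gbp2, a guanylate-binding protein that coats the vacuoles of intracellular microbes, was at 92.6 CPM in replicate 5, against 8.45 to 16.7 CPM (median 11.6) and 10.6 to 29.96 CPM (median 14.7). Near-identical copies lie side by side in the Irg, Gbp, Oas, Ifit and Mx families, and no label or header says how the authors' counting divided reads between copies, so levels of single family members are uncertain.

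The 2 chemokines, which draw activated T cells through the receptor CXCR3, did not go together. Cxcl9 (chromosome 5, 92321331 to 92328079) was at 12.1 CPM in replicate 5, against 0.419 to 1.38 CPM (median 0.862) in the other empty-vector and 0.729 to 2.72 CPM (median 0.908) in the Hand2 muscles. Cxcl10 (chromosome 5, 92346639 to 92348889) was at 6.54 CPM in that animal, below empty-vector replicates 4 (10.2 CPM) and 3 (6.67 CPM). It was not detected in empty-vector replicate 6, where 0 counts allow up to 0.104 CPM (3 counts of that library, counting error only).

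Antiviral effectors, which act on viral RNA and proteins inside the cell, were all 19 highest in replicate 5, with ratios from 2.24 (Eif2ak2) to 24.7 (Mx1). Ifit1 (chromosome 19, 34640889 to 34650009) binds viral RNA that lacks the methyl mark of host caps, and was at 46.7 CPM, against 3.20 to 11.1 CPM (median 5.49) in the other empty-vector and 2.44 to 13.9 CPM (median 4.67) in the Hand2 muscles. Its neighbour Ifit3 was at 79.4 CPM, against 5.50 to 19.01 CPM (median 10.1) and 6.18 to 23.97 CPM (median 8.63). Both genes were also high in a few animals of either vector, so that replicate 5 exceeded the next animal 3.35-fold for Ifit1 and 3.31-fold for Ifit3. Mx1, a dynamin-like GTPase that blocks influenza viruses, was at 11.9 CPM, against 0.186 to 2.22 CPM (median 0.626) and 0.141 to 2.51 CPM (median 0.393). Rsad2 encodes viperin, which makes a chain-terminating nucleotide, and was at 83.6 CPM, against 7.75 to 21.6 CPM (median 14.4) and 7.60 to 25.4 CPM (median 12.9). The oligoadenylate synthetase genes, whose products switch on RNase L, were low outside replicate 5. Oas1a was at 4.41 CPM in that animal, against 0.431 to 1.12 CPM (median 0.967) and 0.583 to 1.36 CPM (median 0.788). Oas2 was at 12.97 CPM, against 2.11 to 4.45 CPM (median 3.32) and 2.96 to 5.45 CPM (median 3.94). Oasl2, of the same family, was at 31.3 CPM, against 3.80 to 9.67 CPM (median 5.29) and 3.78 to 10.6 CPM (median 6.19).

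The 3 other effectors whose levels are given here had ratios between 2.24 and 3.14. Bst2 encodes tetherin, which holds budding virus at the membrane, and was at 33.6 CPM in replicate 5, against 7.50 to 12.7 CPM (median 11.1) and 8.69 to 14.9 CPM (median 10.4). Eif2ak2 encodes PKR, the kinase that stops translation on double-stranded RNA, and was at 17.98 CPM, against 7.38 to 10.5 CPM (median 8.19) and 7.63 to 10.5 CPM (median 7.95). Ifi27l2a, a small membrane protein gene, was at 11.9 CPM, against 3.71 to 6.70 CPM (median 5.07) and 2.67 to 4.90 CPM (median 4.05). Per kilobase of exon, the median level over all 17 animals was highest for Bst2 (12.2 CPM per kb), Igtp (10.5) and Ifi27l2a (9.56), and lowest for Mx1 (0.13), Oas3 (0.148) and Zbp1 (0.201).

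In the ISG15 system, Isg15 (chromosome 4, 156199424 to 156200818), the ubiquitin-like modifier, was at 20.3 CPM in replicate 5, against 1.29 to 5.11 CPM (median 2.51) and 1.76 to 5.08 CPM (median 1.90). Usp18, which removes ISG15 and dampens the receptor, was at 12.7 CPM, against 2.02 to 4.38 CPM (median 2.93) and 1.36 to 4.77 CPM (median 2.39). Trim25, the ubiquitin ligase that activates the sensor RIG-I, was at 33.4 CPM, against 18.7 to 29.2 CPM (median 23.7) and 19.3 to 25.5 CPM (median 20.6), and its highest and next animal differed 1.15-fold. The transcription factor genes were likewise highest in that animal. Irf7, the amplifier of interferon alpha production, was at 39.9 CPM, against 4.98 to 8.27 CPM (median 6.65) and 3.63 to 11.5 CPM (median 5.54). Irf9 was at 54.1 CPM, against 8.28 to 12.6 CPM (median 11.3) and 8.77 to 12.7 CPM (median 11.5). Stat2, its partner in the complex that binds the ISRE, was at 43.9 CPM, against 9.63 to 13.97 CPM (median 12.3) and 8.41 to 17.02 CPM (median 11.3).

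Among the sensors, Zbp1, which detects left-handed nucleic acid and can start necroptosis, had the largest ratio (17.7), at 12.5 CPM against 0.279 to 1.03 CPM (median 0.69) and 0.633 to 1.60 CPM (median 0.838). The RNA sensors of the cytoplasm had smaller ones. Ifih1, which encodes MDA5, was at 24.4 CPM, against 6.23 to 9.20 CPM (median 7.85) and 5.70 to 11.05 CPM (median 8.07). Ddx58, which encodes RIG-I, was at 17.4 CPM, against 5.22 to 9.41 CPM (median 6.51) and 6.17 to 9.18 CPM (median 6.71). In the PARP and DTX3L group the ratios ran from 2.37 to 2.91. Parp14, an ADP-ribosyltransferase, was at 37.6 CPM, against 7.73 to 19.6 CPM (median 12.7) and 10.9 to 19.3 CPM (median 13.6). Each of the 15 genes without levels here was also highest in replicate 5, with ratios from 2.32 (Ifi35) to 15.97 (Oasl1). The median ratio of the other roles was 5.34 for antiviral effectors, 4.77 for transcription factors, 4.69 for the ISG15 system, 4.31 for sensors and 2.83 for the PARP and DTX3L group.

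**Figure D2:**
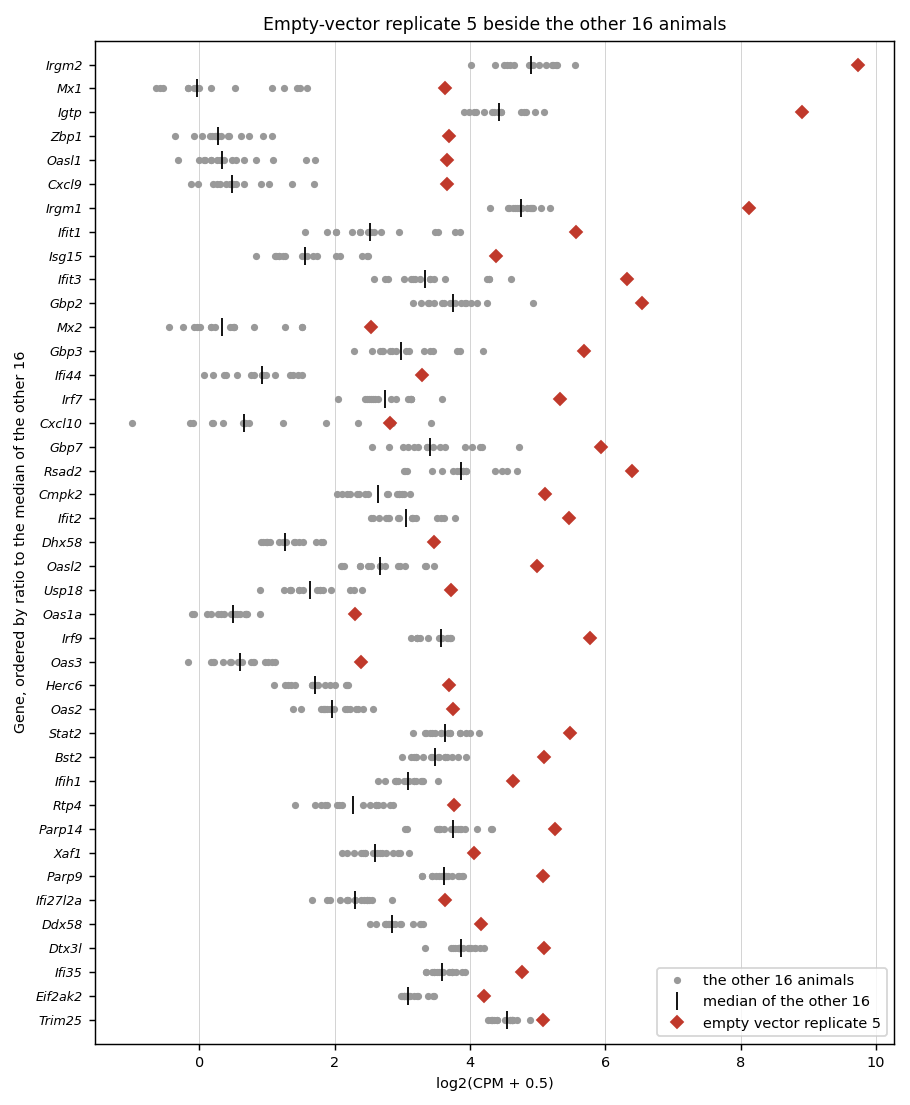
Levels of the 41 genes as log2(CPM + 0.5) on the horizontal axis, with 1 gene per row ordered by the ratio of empty-vector replicate 5 (red diamond) to the median of the other 16 animals (black bar), whose values are grey points. Every diamond except that of Cxcl10 lies to the right of all grey points, from 1.45 times the median for Trim25 at the bottom to 28.9 times for Irgm2 at the top.

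The other 16 animals also differed among themselves. The median over the 41 genes of the SD of log2(CPM + 0.5) was 0.691 over 17 animals and 0.37 without replicate 5, beside medians of 0.204 and 0.202 over all genes tested. Without replicate 5 the SD was largest for Cxcl10 (1.17), Mx1 (0.785) and Ifit1 (0.694) and smallest for Eif2ak2 (0.161), Trim25 (0.176) and Ifi35 (0.178). For 7 genes (Ifit1, Ifit2, Ifit3, Oasl1, Mx1, Usp18 and Dhx58) the next 4 animals after replicate 5 were empty-vector replicates 3 and 9 and Hand2 replicates 3 and 7, which are a female and a male of each vector. Ifit1 was at 13.9 CPM in Hand2 replicate 3, 13.2 in Hand2 replicate 7, 11.1 in empty-vector replicate 3 and 10.7 in empty-vector replicate 9, and the next animal was at 7.25 CPM. The guanylate-binding protein genes followed another order. Gbp2 came next in Hand2 replicate 6 (29.96 CPM) and Hand2 replicate 3 (18.5 CPM), and then in empty-vector replicate 7 (16.7 CPM). These orders were read from the values and are descriptions with no test.

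**Figure D3:**
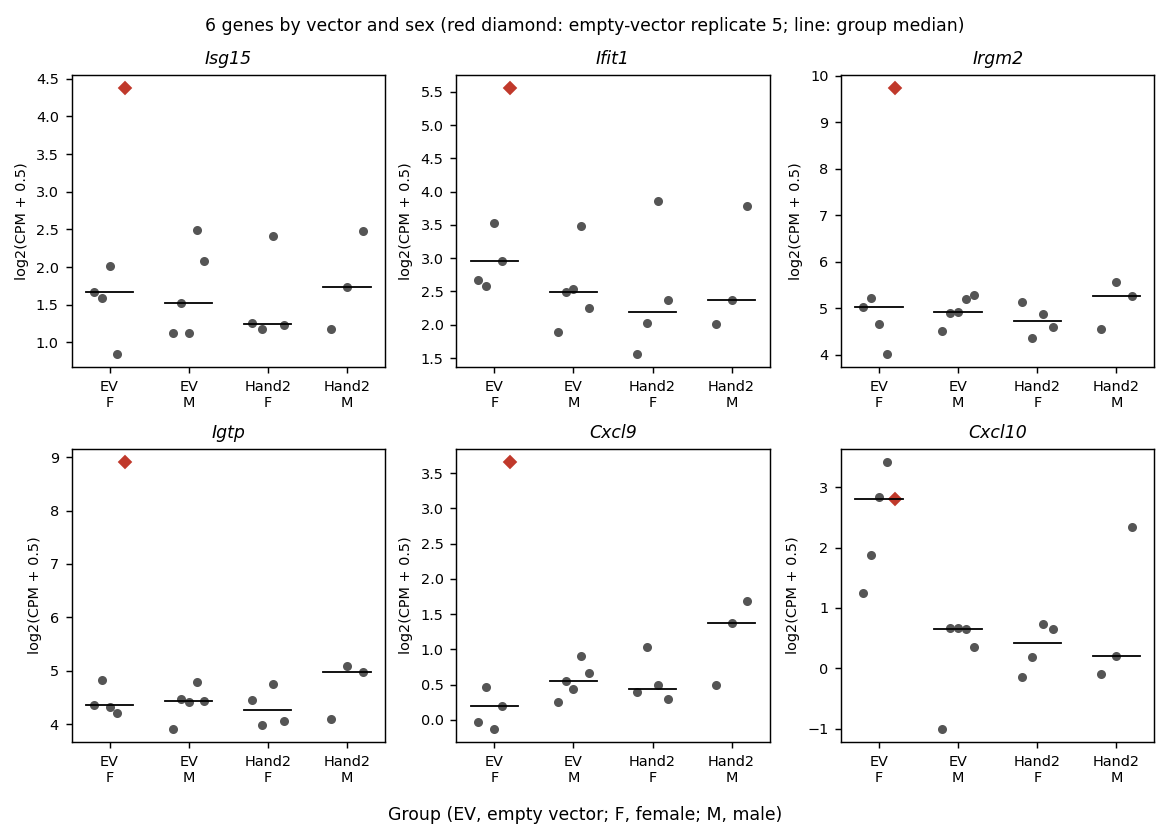
Levels of Isg15, Ifit1, Irgm2, Igtp, Cxcl9 and Cxcl10 as log2(CPM + 0.5) in each animal, by vector (EV, empty vector) and sex, with a line at the group median. The red diamond of empty-vector replicate 5 is far above all other points in 5 panels, and in the Cxcl10 panel it lies among the 5 empty-vector females (1.87 to 10.2 CPM), which are all above the 4 Hand2 females (0.407 to 1.17 CPM).

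The comparison of vectors, with sex as a term, asks whether the Hand2 vector moved these genes in muscle. With all 17 animals the fitted log2 fold change (Hand2 over empty vector) was below 0 for 41 of the 41 genes, with a median of -0.39 and a range of -1.34 to -0.066, where 51.7% of all genes were below 0 and their median was -0.004. Without empty-vector replicate 5 it was below 0 for 16 and above 0 for 25 of the 41, with a median of 0.036 and a range of -0.87 to 0.84, where 51.0% of all genes were below 0. None of the 41 had an edgeR adjusted p under 0.05 with either set of animals (adjusted p from 0.921 to 0.982 and from 0.927 to 0.999), nor did any gene (0.0% called). DESeq2 called 1 gene, which was none of the 41, but gave no p for 9 of the 41. An unadjusted p under 0.05 was found for 1 of the 41, Ifi27l2a, with all animals (5.05% of all genes). It was found for 4 of the 41, Cxcl9, Gbp2, Zbp1 and Ifi27l2a, without replicate 5 (5.19% of all genes). Within the animals of 22 months 32 of the 41 were below 0 with a median of -0.13, and within those of 23 months, which include replicate 5, 31 were below 0 with a median of -0.15. The vector groups overlapped for all 41 genes with and without that animal (0.0215% and 0.0286% of all genes had groups that did not overlap).

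Fold changes of several genes with a large excess in replicate 5 turned from below to above 0 without it. That of Igtp was -1.11 ± 0.81 (log2, SE) with all animals and 0.12 ± 0.17 without, and that of Irgm1 went from -0.68 ± 0.53 to 0.091 ± 0.10. Zbp1 went from -0.71 ± 0.71 to 0.60 ± 0.28, Cxcl9 from -0.39 ± 0.72 to 0.84 ± 0.25 (95% interval 0.31 to 1.37), and Gbp2 from -0.20 ± 0.50 to 0.50 ± 0.20 (95% interval 0.080 to 0.91). The last 3 of these had an unadjusted p under 0.05 without that animal and not with it. All 5 genes were highest in the animal left out, so a rise of their fold change was built into that choice. Ifi27l2a was below 0 both ways, at -0.53 ± 0.19 and -0.35 ± 0.14 (95% interval -0.65 to -0.052), and so was Cxcl10, at -0.95 ± 0.80 and -0.87 ± 0.82.

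For the next 10 genes the estimate without replicate 5 was between -0.13 and 0.15. Ifit1 went from -0.56 ± 0.57 to 0.012 ± 0.39 and Ifit3 from -0.49 ± 0.52 to 0.097 ± 0.34. Isg15 went from -0.61 ± 0.55 to 0.089 ± 0.31, Usp18 from -0.44 ± 0.39 to -0.001 ± 0.24 and Trim25 from -0.17 ± 0.099 to -0.11 ± 0.088. Mx1 went from -0.98 ± 0.86 to -0.13 ± 0.64 and Rsad2 from -0.33 ± 0.47 to 0.15 ± 0.27. The intervals stayed wide for the genes that varied most, from -1.49 to 1.22 for Mx1 without replicate 5, so these data do not limit their fold change closely. Irf7 went from -0.50 ± 0.43 to 0.036 ± 0.21, Irf9 from -0.39 ± 0.35 to 0.091 ± 0.11 and Stat2 from -0.27 ± 0.30 to 0.062 ± 0.14. The interval for Irf9 without that animal was -0.14 to 0.32.

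The synthetase, sensor and other effector genes lay on both sides of 0 without that animal. Oas1a went from -0.45 ± 0.39 to 0.029 ± 0.26, Oas2 from -0.11 ± 0.31 to 0.25 ± 0.18 and Oasl2 from -0.28 ± 0.42 to 0.28 ± 0.23. Among the other genes of smallest p, Oas3 went from -0.70 ± 0.38 to -0.35 ± 0.28, Ifi44, a cytoplasmic antiviral protein gene, from -0.89 ± 0.49 to -0.24 ± 0.29, and Herc6, the ligase that attaches ISG15 in mice, from -0.54 ± 0.35 to -0.11 ± 0.20. Ifih1 went from -0.19 ± 0.24 to 0.093 ± 0.13, Ddx58 from -0.066 ± 0.21 to 0.16 ± 0.12 and Parp14 from -0.11 ± 0.28 to 0.23 ± 0.13. Eif2ak2 went from -0.13 ± 0.16 to 0.028 ± 0.097 and Bst2 from -0.21 ± 0.27 to 0.074 ± 0.14. Irgm2 went from -1.34 ± 0.90 to 0.083 ± 0.19. Without replicate 5, 7 of the 8 GTPases and chemokines were above 0 (median 0.19), as were 10 of the 19 effectors (0.012), 3 of 4 sensors (0.13) and 1 of 4 genes of the ISG15 system (-0.053).

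**Figure D4:**
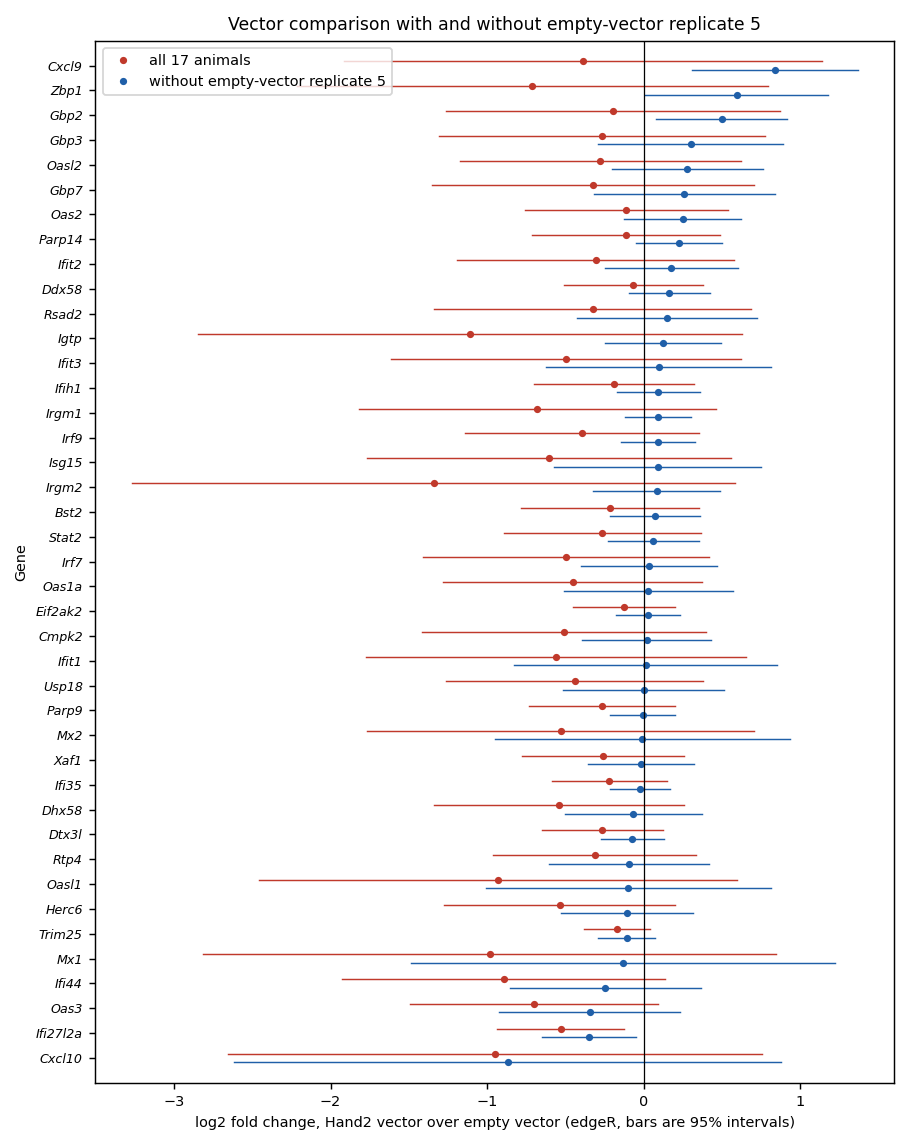
Log2 fold change of each of the 41 genes, Hand2 vector over empty vector, from edgeR with sex as a term, with 95% intervals, for all 17 animals (red) and without empty-vector replicate 5 (blue). All 41 red points are below 0 (median -0.39), while the blue points lie on both sides of it (25 above, 16 below, median 0.036).

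Within females, who include replicate 5, 41 of the 41 genes were below 0 with a median of -0.94 (range -2.84 to -0.24; all genes, 51.6% below 0). An unadjusted p under 0.05 was found for 9 of them (5.9% of all genes), and none passed the false discovery rate (0.0% of all genes). Without replicate 5, 27 were below and 14 above 0 with a median of -0.082 (51.1% of all genes below 0), and 1 of the 41 had an unadjusted p under 0.05 (5.49% of all genes). Besides Cxcl10, the genes of smallest p were Oas3, Irgm2, Ifi27l2a and Igtp. Oas3 went from -1.37 ± 0.46 to -0.77 ± 0.37, Irgm2 from -2.84 ± 1.08 to -0.026 ± 0.27, Ifi27l2a from -0.67 ± 0.26 to -0.34 ± 0.20 and Igtp from -2.50 ± 0.96 to -0.099 ± 0.24.

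Cxcl10 was the 1 gene of the 41 whose vector groups did not overlap in females, with replicate 5 (1.65% of all genes) and without it (2.85%). A count of 1 in 41 is near these shares, so it does not set the 41 genes apart. In empty-vector females 1 to 5 it was at 1.87, 3.16, 6.67, 10.2 and 6.54 CPM. In Hand2 females 1, 2, 3 and 5 it was at 0.407, 0.633, 1.17 and 1.07 CPM. Every empty-vector female was above every Hand2 female, and the log2 fold change was -2.80 ± 0.77 (95% interval -4.44 to -1.16) and -2.74 ± 0.82 without replicate 5. It did not pass the false discovery rate in edgeR (adjusted p = 0.783, from 0.213 with DESeq2 to 0.999 over the other settings). The 2 empty-vector females with the highest Cxcl10, replicates 3 and 4, also had the highest summed level of 14 immediate-early genes, which respond within minutes to stress, at 3500 and 1811 CPM beside 370.2 to 790 CPM in the other 15 animals. The part of the immediate-early difference in the Cxcl10 result was not tested beyond leaving out 1 animal at a time, which gave -2.73 without replicate 3 and -2.49 without replicate 4.

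Within males 34 of the 41 genes were above 0, with a median of 0.20 and a range of -0.38 to 1.19 (51.2% of all genes below 0). None had an unadjusted p under 0.05 (2.84% of all genes) and none passed the false discovery rate. With replicate 5 left out of the joint fit the median was again 0.20, and Cxcl9 had an unadjusted p under 0.05 (2.81% of all genes) at 0.92 ± 0.36. Male Cxcl10 was at 0, 1.10, 1.10, 1.07 and 0.771 CPM in empty-vector replicates 6 to 10. It was at 0.433, 0.649 and 4.55 CPM in Hand2 replicates 4, 6 and 7, so that 1 Hand2 male was high and the groups overlapped. The log2 fold change in males was 1.19 ± 0.83, and without Hand2 replicate 7 it turned to -0.57. The other genes of smallest p in males were Ifi27l2a (-0.36 ± 0.29), Rsad2 (0.69 ± 0.58), Cxcl9 (0.92 ± 0.95) and Rtp4 (0.37 ± 0.39), a chaperone of membrane receptors. Leaving out replicate 5, which is a female, changed the SEs more than the estimates, which were then -0.36 ± 0.21, 0.69 ± 0.34, 0.92 ± 0.36 and 0.37 ± 0.32.

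The difference of the vector effect between the sexes (males minus females) was above 0 for 41 of the 41 genes with all animals, with a median of 1.22 (50.3% of all genes below 0). Without replicate 5 it was above 0 for 32 and below 0 for 9, with a median of 0.18 (50.9% of all genes below 0). None passed the false discovery rate either way (0.0% of all genes), and an unadjusted p under 0.05 was found for 4 of the 41 with all animals (3.39% of all genes) and for 2 without replicate 5 (3.26%). Those 2 were Cxcl10, at 3.99 ± 1.12 with all animals, 3.93 ± 1.17 without replicate 5 and 2.22 without Hand2 replicate 7, and Rsad2, at 1.93 ± 0.80 and 1.06 ± 0.47. Rtp4 was at 1.28 ± 0.53 and 0.91 ± 0.44, Oas3 at 1.48 ± 0.68 and 0.88 ± 0.53, and Igtp at 2.86 ± 1.34 and 0.45 ± 0.34.

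Males were then compared with females, with vector as a term. With all 17, 40 of the 41 genes were lower in males, with a median log2 difference of -0.42 (49.9% of all genes below 0). None of the 41 was called, where 5.63% of all genes were (786, 406 of them higher in males), and 1 of the 41 had an unadjusted p under 0.05 (21.6% of all genes). Without replicate 5, 29 were higher and 12 lower in males, with a median of 0.048 (49.3% of all genes below 0). Of the 41, 1 was then called, where 4.36% of all genes were (606), and 2 had an unadjusted p under 0.05 (20.4% of all genes). The called gene was Parp14, higher in males by 0.50 ± 0.13 (adjusted p = 0.0352 in edgeR, against 0.13 ± 0.28 and 0.834 with all animals, and 0.0352 to 0.96 over the settings tried). Cxcl9 was at -0.57 ± 0.70 with all animals and 0.81 ± 0.25 without replicate 5. Cxcl10 was at -1.28 ± 0.78 with all animals and -1.18 ± 0.79 without replicate 5, and was called as lower in males when Hand2 replicate 7, the male with the highest Cxcl10, was left out (-2.25, adjusted p = 0.0343, and up to 0.874 over the other settings). The other genes of smallest p with all animals were Ifi27l2a (-0.42 ± 0.19), Zbp1 (-1.41 ± 0.69), Irgm1 (-0.95 ± 0.52) and Igtp (-1.26 ± 0.79). Without replicate 5 these were at -0.22 ± 0.14, -0.043 ± 0.28, -0.079 ± 0.10 and 0.18 ± 0.17. The next genes of smallest p without that animal were Dtx3l, the partner ligase of Parp9, at 0.18 ± 0.095, Gbp7 at 0.53 ± 0.27 and Ifi35, a partner of Nmi, at 0.17 ± 0.090. With all animals these were at -0.028 ± 0.18, -0.13 ± 0.47 and -0.046 ± 0.17.

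Genes of interferon, its signalling, and the sensing of nucleic acid and its control were listed apart. A place in these lists does not show that a gene acted upstream of the 41 here. Of 10 interferon genes listed, 8 were in the table and none passed the filter. Ifng had 8 counts in all 17 libraries together, 2 of them (0.071 CPM) in replicate 5, and Ifnb1 had 1 count in all, none of it in replicate 5. Levels below 3 counts could not be measured at this depth. Of 16 genes for receptors and signalling, 5 were highest in replicate 5, among them Socs3, Irf1, Irf8 and Tyk2. Socs3, a feedback inhibitor, was at 27.7 CPM against 3.55 to 11.9 CPM in the other animals, and Irf1, a transcription factor, at 41.5 against 8.63 to 29.3 CPM. The receptor genes Ifnar1 and Ifngr1 were within the range of the other animals, with Ifnar1 at 37.0 against 31.5 to 39.1 CPM and Ifngr1 at 49.0 against 34.5 to 63.5 CPM. Of 13 genes listed for sensing and its control, 5 were highest in that animal: Tlr3, Myd88, Trex1, Samhd1 and Adar. The genes named in this paragraph were chosen after their values were seen.

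Related target genes were also highest in the same animal. Of 47 other interferon-induced genes 43 were highest in replicate 5 (all but Ifitm1, Tgtp1, Ifi30 and Nampt), and of 15 MHC class I and immunoproteasome genes all 15 were. Their median vector fold change was -0.13 (35 of 47 below 0) and -0.21 (14 of 15 below 0) with all animals, and 0.14 (39 of 47 above 0) and 0.089 (12 of 15 above 0) without it. None of either list was called between vectors. With all animals the genes of smallest p in the first list were Tor3a (-0.18 ± 0.089), Ifi30 (-0.24 ± 0.15) and Nampt (-0.12 ± 0.077), which were at -0.11 ± 0.074, -0.25 ± 0.15 and -0.10 ± 0.080 without replicate 5. In the MHC class I list they were Psme2 (-0.21 ± 0.15), Psme1 (-0.17 ± 0.13) and Psmb10 (-0.31 ± 0.24), which were at -0.058 ± 0.084, -0.035 ± 0.055 and -0.031 ± 0.10 without it. Without replicate 5 the genes of smallest p included Epsti1 (0.68 ± 0.27), Gbp5 (0.62 ± 0.26) and Pml (0.22 ± 0.088) of the first list, against 0.27 ± 0.36, 0.031 ± 0.46 and 0.090 ± 0.13 with it. In the MHC class I list they included Psmb8 (0.33 ± 0.15) and Nlrc5 (0.54 ± 0.27), the activator of MHC class I genes, against -0.043 ± 0.32 and -0.29 ± 0.59 with it. In the signalling and sensing lists, Ifnar2, a receptor subunit, was at 0.26 ± 0.10 with and 0.26 ± 0.11 without replicate 5, and Jak1 at -0.13 ± 0.062 and -0.12 ± 0.065. Ikbke, a kinase that activates IRF3, was at 0.60 ± 0.26 and 0.76 ± 0.25, Samhd1 at 0.028 ± 0.17 and 0.23 ± 0.061, and Irf1 at 0.15 ± 0.25 and 0.43 ± 0.14. The edgeR adjusted p of these genes was 0.921 or higher with all animals and 0.927 or higher without that animal. Between sexes Irf5, a factor of macrophages and B cells, was higher in males by 1.01 ± 0.15 (edgeR adjusted p = 0.000386) and by 1.08 ± 0.15 without replicate 5 (adjusted p = 0.000233). Trex1, a DNase, was lower in males by a log2 difference of -0.32 ± 0.087 (adjusted p = 0.0375), which was -0.26 ± 0.075 without replicate 5 (adjusted p = 0.0606). Psme1, a proteasome activator subunit, was higher in males by 0.30 ± 0.055 without replicate 5 (adjusted p = 0.00397) and by 0.15 ± 0.12 with it (adjusted p = 0.506).

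Markers of other cells were read in the same animal. Macrophage markers (8 of 8 measured) summed to 149 CPM in replicate 5, which ranked 7 of 17, and to 74.4 to 206 CPM in the others. Of the 8, 2 were highest in that animal: Cd68 (4.76 against 1.12 to 4.43 CPM) and C1qb (26.3 against 8.51 to 24.6 CPM). The rest were within range, and Csf1r ranked 14 and Emr1 13 of 17. Monocyte markers (4 in the table of 5) summed to 30.6 CPM, above the 7.80 to 16.6 CPM of the others, and 3 of the 4 were highest in that animal. Plac8 was at 9.81 CPM against 0.322 to 2.64 CPM, Fcgr1 at 6.004 against 0.557 to 1.78 CPM and Ly6c2 at 10.6 against 4.71 to 9.16 CPM, while Ccr2 was within range (4.19 against 1.16 to 6.07 CPM). T cell markers summed to 3.41 CPM against 1.16 to 3.28 CPM, with Lck highest in that animal (0.711 CPM against at most 0.386 CPM), Cd3d next to highest (1.42 against 0.139 to 1.73 CPM), and Cd8a (0.782 against 0.515 to 1.38 CPM) and Cd3e (0.142 against at most 0.292 CPM) within range. Trac was at 0 in all 17 libraries. NK cell markers summed to 2.06 CPM against 0.21 to 2.09 CPM, with Nkg7 (1.03 against at most 0.681 CPM) and Gzmb (0.426 against at most 0.28 CPM) highest in that animal and Prf1 at 0. B cell and plasma cell markers were lowest in that animal (0.71 CPM against 1.12 to 8.51 CPM), with Cd79a and Ms4a1 at 0. Plasmacytoid dendritic cell markers were within range, with Siglech at 0.426 CPM against 0.259 to 2.62 CPM. Summed neutrophil (13.5 against 2.50 to 21.2 CPM), red blood cell (1546 against 279.9 to 2412 CPM) and fast-muscle markers (78791 CPM) were also within range. Of the fast-muscle genes, Myh1 was highest in that animal (12023 against 6400 to 11138 CPM) and Myh4 ranked 16 of 17. Summed endothelial (311 against 284 to 455 CPM), fibro-adipogenic progenitor (505 against 424 to 1072 CPM) and satellite cell markers (41.7 against 33.7 to 53.8 CPM) were within range. Col1a1, of the progenitor list, was lowest in that animal (51.8 against 57.0 to 267 CPM). The part of these cells in the levels of the 41 genes was not tested.

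**Figure D5:**
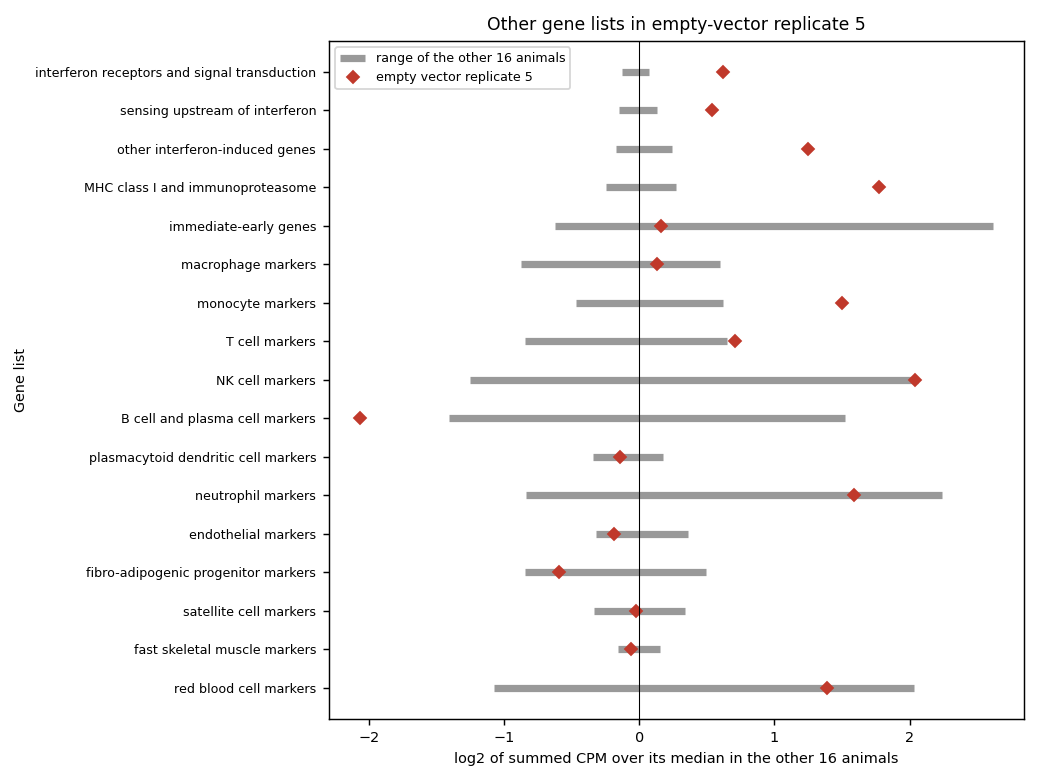
Summed CPM of each other gene list in empty-vector replicate 5 (red diamond) and the range of the other 16 animals (grey bar), as log2 of the ratio to the median of those 16. The diamonds of the receptor, sensing, interferon-induced, MHC class I, monocyte and T cell lists lie to the right of their bars, the B cell diamond (0.71 CPM) lies to the left, and the fast-muscle diamond (78791 CPM) lies inside its bar. The receptor list also holds signalling genes, and 5 of its 16 genes were highest in replicate 5. The median log2 deviation of its genes there was 0.042, so its sum (947 against at most 648 CPM) does not stand for most of its genes. Of the receptor genes, Ifnar1 ranked 9, Ifnar2 14, Ifngr1 5, Ifngr2 16 and Il10rb 15 of 17. The T cell sum was barely outside its bar (3.41 against at most 3.28 CPM), with 2 of 7 markers passing the filter.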

How the data were processed

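Estimated counts per gene were deposited by the authors for 17 muscles. The file headers point to a RefSeq-based gene model, and the submitters' processing notes name mm10. For the aligner, the counting tool and the use of strand: not given in the sources used here. Log2 normalized values, also deposited by the authors, were not used. Estimated counts were rounded to whole numbers and tested with edgeR 4.0.16 (R 4.3.3): genes passing filterByExpr by vector and sex, TMM factors, and robust quasi-likelihood fits with vector and sex, or with the 4 groups of vector and sex for effects within a sex. P-values were adjusted by Benjamini-Hochberg over all genes tested in each fit, at a threshold of 0.05. The filter was rerun for each set of animals, which left 13965 genes with all animals and 13899 without empty-vector replicate 5. Other settings tested other numbers of genes. Intervals are 95%. The prior for plotted levels was 0.5 CPM.

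The members and lists were chosen with earlier results of these data known. Levels and fold changes are given for a panel of 25 members, for up to 5 members of smallest p in each of 5 comparisons, and for up to 3 genes of smallest p from each outside list in the comparisons of vectors and of sexes. Replicates were numbered in accession order, and each sample was taken as 1 animal, which the labels do not state outright. P-values measure the spread between these samples. The closest pair of libraries differed by a mean chi-square per gene of 15.2, where sampling noise gives 1, so no library was counted as a repeat. Alternatives were DESeq2 1.42.0, limma-voom 3.58.1 with quality weights, other scaling factors and filters, an age term, no sex term, single ages, and leaving out each animal. Promoters came from RefSeq (GRCm38.p6). Figures were drawn with matplotlib 3.10.9.
1 gene of an outside list is not reported here.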

Additional observations from a re-analysis of the deposited data

Results flagged for a closer look

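A sample was marked where its gap to the nearest other sample, divided by the range of its vector group, exceeded the 95% critical value of Dixon's test (0.466 for 10 samples, 0.568 for 7). Chance marks about 1 in 20 groups for a single gene. The rule was run on the 41 genes only, so no share over all genes stands beside the counts below. The 41 genes were read in the same animals, so their marks are not independent of each other. In the empty-vector group replicate 5 was the high sample for 36 of the 41 genes. Among antiviral effectors the gap was 0.552 for Ifit1, 0.645 for Ifit2, 0.544 for Ifit3, 0.666 for Oas1a, 0.610 for Oas2, 0.604 for Oas3, 0.597 for Oasl1, 0.570 for Oasl2, 0.523 for Mx1, 0.575 for Rsad2, 0.575 for Ifi44, 0.593 for Ifi35, 0.503 for Ifi27l2a, 0.653 for Bst2, 0.559 for Xaf1, 0.733 for Cmpk2 and 0.612 for Eif2ak2. In the ISG15 system it was 0.535 for Isg15, 0.601 for Usp18 and 0.628 for Herc6. Among transcription factors it was 0.764 for Irf7, 0.781 for Irf9 and 0.759 for Stat2. The sensors had gaps of 0.518 for Ddx58, 0.720 for Ifih1, 0.639 for Dhx58 and 0.760 for Zbp1. The PARP and DTX3L group had gaps of 0.662 for Parp9 and 0.642 for Dtx3l. Among GTPases and chemokines it was 0.721 for Gbp2, 0.552 for Gbp3, 0.529 for Gbp7, 0.817 for Igtp, 0.836 for Irgm1, 0.778 for Irgm2 and 0.727 for Cxcl9. In the Hand2 group replicate 7 was the high sample for Mx2 (0.645) and Cxcl10 (0.646), and replicate 2 was the low sample for Dtx3l (0.593).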

How the results depend on the processing

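No paired analysis was possible because the labels tie no animal of 1 group to an animal of another. DESeq2 gave no p for 9 of the 41 genes in the comparison of vectors and for 9 in that of sexes. It gave none for 5 in females, in males and in the difference between sexes. The stricter filter kept 35. Between vectors, the genes called were 1 with DESeq2 and 0 to 1 on leaving out each animal. The median of the 41 was -0.181 with an age term (37 below 0), -0.222 with limma-voom (33 below 0), -0.129 within 22 months, -0.148 within 23 months and -0.563 to 0.036 on leaving out each animal, with 16 to 41 below 0. In females DESeq2 called 7 genes, none of the 41, and leaving out each animal 0 to 1. Zbp1, Irf7, Irgm1, Igtp and Irgm2 had no DESeq2 p there and so could not be called. The female median was -0.638 with an age term, -0.487 with limma-voom and -1.255 to -0.082 on leaving out each animal (27 to 41 below 0). In males DESeq2 called 1 gene, leaving out each animal 0 to 2, with 13 of the 41 below 0 with limma-voom and 4 to 21 on leaving out each animal, and Cxcl10 from -0.575 to 1.679. The difference between sexes had a median of 0.855 with an age term, 0.601 with limma-voom and 0.183 to 1.519 on leaving out each animal (1 below 0 with limma-voom, 0 to 9 otherwise). Between sexes DESeq2 called 1271 genes, single ages 24 and 413, leaving out each animal 476 to 952 (0 to 1 of the 41), with medians of -0.105 at 22 months, -0.845 at 23 months and -0.564 to 0.048 on leaving out each animal (12 to 40 below 0). Igtp lay there from -1.45 to 0.181, and Zbp1 was at 0.218 at 22 months.

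Single vector fold changes were recomputed for the 28 genes of the panel and of smallest p in that comparison. Replicate 5 was picked by the values of these genes and held the highest level of all but Cxcl10. A rise of their fold changes on leaving it out was therefore built in. Of these, 20 crossed 0 on leaving out empty-vector replicate 5 and none on leaving out another animal, with these lowest and highest values over all animals left out: Bst2 -0.335 and 0.074, Cxcl9 -0.695 and 0.838, Ddx58 -0.138 and 0.164, Eif2ak2 -0.218 and 0.028, Gbp2 -0.519 and 0.497, Ifih1 -0.324 and 0.093, Ifit1 -0.996 and 0.012, Ifit3 -0.79 and 0.097, Igtp -1.348 and 0.123, Irf7 -0.63 and 0.036, Irf9 -0.484 and 0.091, Irgm1 -0.856 and 0.091, Isg15 -0.895 and 0.089, Oas1a -0.659 and 0.029, Oas2 -0.211 and 0.249, Oasl2 -0.437 and 0.278, Parp14 -0.202 and 0.227, Rsad2 -0.544 and 0.147, Stat2 -0.392 and 0.062, Zbp1 -0.925 and 0.595. Among the 28, with an age term Cxcl9 (0.09), Ddx58 (0.004) and Gbp2 (0.069) were above 0. With limma-voom Cxcl9 (0.4), Ddx58 (0.009), Gbp2 (0.181), Oas2 (0.057), Parp14 (0.106) and Zbp1 (0.049) were. At 22 months Cxcl9 (0.382), Gbp2 (0.134), Ifit1 (0.08), Ifit3 (0.421), Zbp1 (0.876), Mx1 (0.357) and Usp18 (0.033) were. At 23 months Bst2 (0.071), Cxcl9 (0.286), Ddx58 (0.092), Gbp2 (0.156), Oas2 (0.088), Parp14 (0.024), Rsad2 (0.152) and Cxcl10 (0.432) were. The cause was not tested. Depth limits the interferon genes themselves, which had few or no counts.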
